A study of Sus scrofa with 36 samples.

Results

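The insulin signalling core genes are the proteins that carry the insulin signal from the cell surface to the enzymes that store and release fat. Of 8 such genes looked for by symbol, 6 had a row in the deposited table of 12253 genes and 36 pigs, namely INSR, IRS1, PIK3R1, AKT2, FOXO1 and PDE3B. IRS2 and AKT1 were not analysed here, because no row was paired with these symbols. Identifiers were matched through a table of gene names, in which 8320 of the 12253 rows had a symbol.

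The pigs are F2 animals of a Duroc and Göttingen Minipig cross, and subcutaneous adipose tissue taken after slaughter was profiled by RNA-Seq of polyadenylated RNA. Groups follow the Obesity Index, a value predicted from genetics, and are labelled Low (lean, 12 pigs, 7 males and 5 females), Mean (intermediate, 12 pigs, 6 males and 6 females) and High (obese, 12 pigs, 6 males and 6 females). No treatment or engineered allele was given. The groups also differed in age at slaughter, with the lean pigs the oldest, and full sibs were among the pigs, so obesity, age and family cannot be told apart here.

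Insulin binds its receptor (INSR), a tyrosine kinase, which phosphorylates docking proteins such as IRS1. These recruit PI3-kinase through its regulatory subunit (PIK3R1), and the lipid product of PI3-kinase leads to activation of AKT2, the AKT isoform best known for insulin-driven glucose uptake in fat and muscle. AKT keeps the transcription factor FOXO1 out of the nucleus and activates PDE3B, a phosphodiesterase that degrades cyclic AMP and so restrains lipolysis. Most of this control is by phosphorylation, which mRNA levels do not measure.

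Reads per pig, recovered from the deposited values, ranged from 8735839 to 11755925 with a median of 10496910. Levels below are normalized counts, that is, reads divided by the size factor of the pig. They are not scaled by transcript length, so they were not compared between genes. Of 12 adipocyte markers 6 were measured, and the summed normalized count of these had a median of 63863.5 in lean, 68328.4 in intermediate and 68361.6 in obese animals, so markers of the labelled tissue were present (lowest pig 30284.6). Some libraries also stood apart in markers of other tissues. In lean pigs the skin sum reached 14389.6 (median 134.3) and the skeletal muscle sum 1416.9 (median 171.0). The red cell sum reached 16051.7 in lean and 18078.4 in obese pigs (medians 1481.1 and 1977.8). The part of these tissues in the levels below was not tested. In obese against lean pigs, 9 of 10 measured macrophage markers were higher at an unadjusted limma p below 0.05 (median log2 difference 0.80) and 4 of 6 endothelial markers were lower (median -0.31). T or NK cell markers were higher for 2 of 7 (median 0.61) and adipocyte markers for 2 of 6 (median 0.10). Of all genes 14.7% had such a p in either direction, and 0 genes of these lists passed correction. With 6 or 7 genes, a count of 2 is not set apart from that share. This is bulk tissue, in which fewer cells of a type and less RNA per cell cannot be told apart.

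Obese against lean pigs was the main contrast of the design. In limma 0 of the 6 genes passed at a Benjamini-Hochberg (BH) adjusted p below 0.05 (group and sex as terms), against 0.0408% of all genes. This share rests on 5 genes and was unstable, as 1 to 292 genes were called over the fits without 1 pig (292 without lean replicate 2, 204 without lean replicate 8 and 43 without lean replicate 10), while 0 of the 6 genes passed in each of these fits. At an unadjusted p below 0.05 the number was also 0 of 6, against 14.7% of all genes, and limma with voom weights on recovered reads called 0 as well. The median absolute log2 difference of the 6 genes was 0.15, compared with 0.12 over all genes. Between intermediate and lean pigs 0 of 6 genes passed, against 0.00% of all genes, and PIK3R1 alone reached an unadjusted p below 0.05, against 12.5% of all genes. For obese against intermediate pigs 0 of 6 passed, against 0.00%, and for a linear trend over the groups 0 of 6, against 0.0245%. The share for the trend, 3 genes, became 1 to 274 genes without 1 pig (274 without lean replicate 2 and 145 without lean replicate 8). At an unadjusted p below 0.05 both counts were 0, against 4.28% and 14.5% of all genes. The comparisons of obese and of intermediate pigs share the lean pigs and are not independent.

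**Figure D1:**
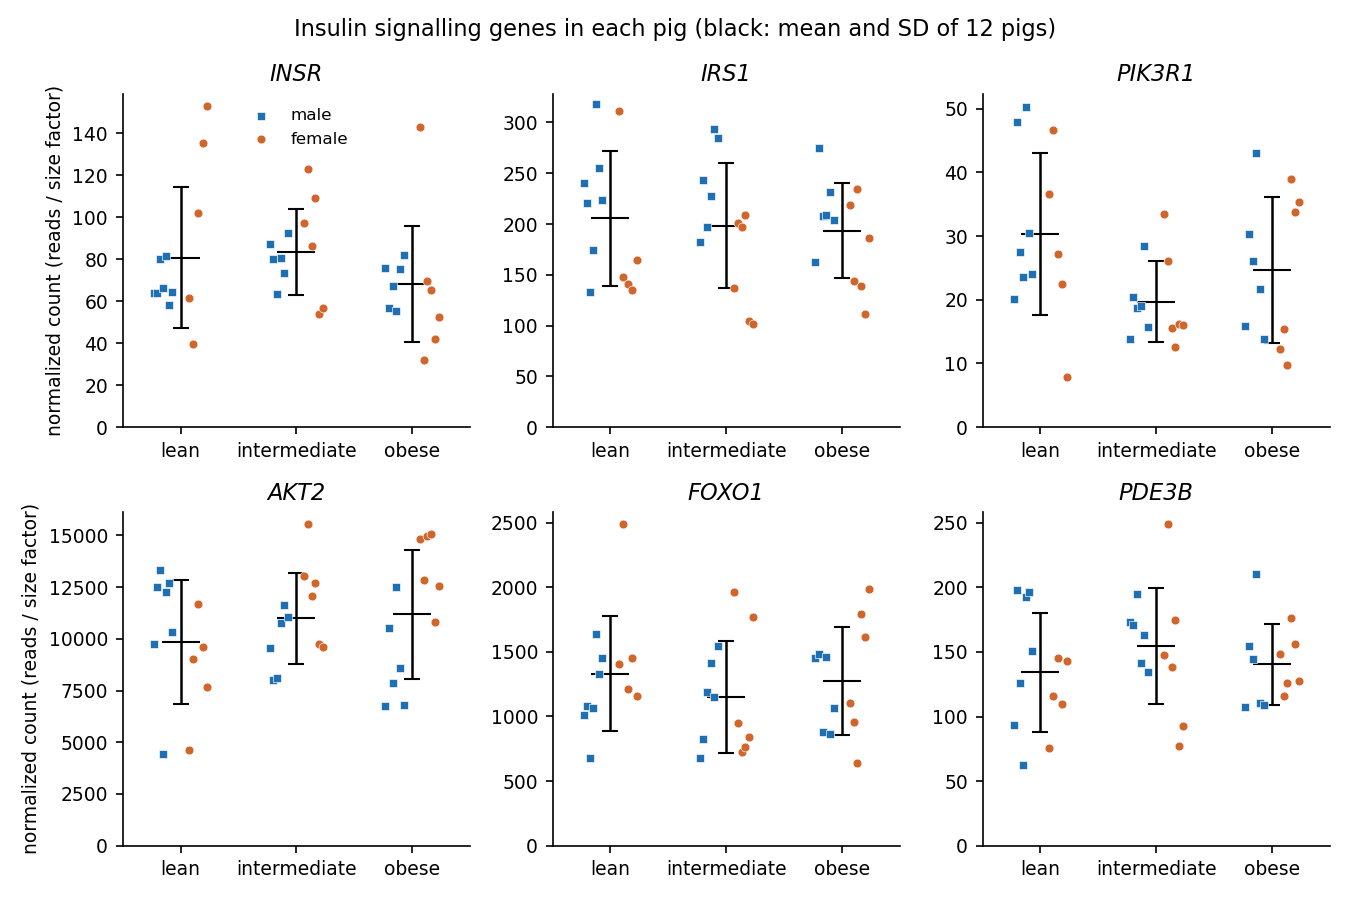
Normalized counts (vertical axes, reads divided by size factor, starting at 0) of the 6 genes in each of 36 pigs by group; squares are males, circles are females, and black bars give the mean and SD of 12 pigs. The groups overlap in every panel, and the 2 lean pigs at 4444.8 and 4616.5 in the AKT2 panel stand apart from the rest.

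At the receptor, INSR (ENSSSCG00000013566) had normalized counts of 39.58 to 152.8 in lean pigs (median 65.30), 53.89 to 122.9 in intermediate pigs (median 83.33) and 31.85 to 142.7 in obese pigs (median 66.20). The range of the obese pigs lay almost on that of the lean pigs, and 11 of 12 obese pigs were inside it. Means were 80.75 ± 33.41, 83.57 ± 20.45 and 68.04 ± 27.67, respectively (SD, n = 12 each). The log2 difference of obese against lean was -0.26 ± 0.20 (SE, 95% interval -0.66 to 0.14, limma adjusted p = 0.564), which leaves room for a level between 0.63 and 1.10 times that of lean pigs. This difference ran from -0.36 to -0.17 over the fits without 1 pig. For intermediate against lean the difference was 0.08 ± 0.20 (95% interval -0.32 to 0.49, adjusted p = 0.889).

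IRS1 (ENSSSCG00000025729), the docking protein that links the receptor to PI3-kinase, ranged from 133.1 to 317.7 in lean pigs (median 197.5), from 101.9 to 293.2 in intermediate pigs (median 199.3) and from 111.9 to 274.6 in obese pigs (median 206.1). Its groups had nearly the same centre, and 11 of 12 obese pigs fell inside the lean range. Mean levels were 205.5 ± 66.24, 198.3 ± 61.47 and 193.6 ± 46.60 (SD, n = 12 each). IRS1 had the smallest difference of the 6 genes between obese and lean pigs, with a log2 value of -0.04 ± 0.16 (SE, 95% interval -0.37 to 0.29, limma adjusted p = 0.945), and the value for intermediate against lean was also -0.04 ± 0.16 (adjusted p = 0.953). The sign was not fixed in either, since 4 of 36 fits without 1 pig gave a value above 0.

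PIK3R1 (ENSSSCG00000016958) encodes the p85-alpha regulatory subunit of PI3-kinase and was the gene with the fewest reads, 8 to 47 per pig. Normalized counts ran from 7.939 to 50.28 in lean pigs (median 27.31), from 12.64 to 33.42 in intermediate pigs (median 17.48) and from 9.826 to 43.11 in obese pigs (median 23.84). The intermediate pigs were the low and narrow group, and only 2 of 12 were above the lean median, but all 12 were inside the lean range. Mean levels were 30.39 ± 12.74, 19.69 ± 6.387 and 24.72 ± 11.43 in the same order (SD, n = 12 each). Against lean pigs, the intermediate pigs had a log2 difference of -0.54 ± 0.24 (SE, 95% interval -1.03 to -0.05), with an unadjusted limma p of 0.0321 that did not survive correction (adjusted p = 0.364). With the macrophage marker mean as a covariate it was -0.40 (unadjusted p = 0.124). The obese pigs differed from the lean by -0.31 ± 0.24 (SE, 95% interval -0.80 to 0.18, adjusted p = 0.583), by -0.48 to -0.22 over the fits without 1 pig and by -0.12 (unadjusted p = 0.664) with the macrophage covariate.

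The kinase AKT2 (ENSSSCG00000002989) had 4444.8 to 13316.2 normalized counts in lean pigs (median 10021.7), 7996.1 to 15573.3 in intermediate pigs (median 10927.6) and 6732.7 to 15071.7 in obese pigs (median 11677.9). The 3 highest obese pigs exceeded every lean pig, and the lowest values of the series were both lean. Mean levels were 9824.6 ± 2999.4, 10987.4 ± 2186.7 and 11179.1 ± 3115.1 (SD, n = 12 each). The log2 difference was 0.18 ± 0.16 for obese against lean (SE, 95% interval -0.14 to 0.50, limma adjusted p = 0.646) and 0.18 ± 0.16 for intermediate against lean (adjusted p = 0.654). The latter ran from 0.078 to 0.235 over the fits without 1 pig. The row drew more reads than 99.3% of the genes in the table, without scaling by length. AKT isoforms resemble each other in sequence, and whether reads of another isoform or another gene are included in this row was not tested.

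FOXO1 (ENSSSCG00000009370), the transcription factor that AKT inhibits, ranged from 677.9 to 2490.7 in lean pigs (median 1270.6), from 677.7 to 1960.5 in intermediate pigs (median 1047.3) and from 641.3 to 1986.3 in obese pigs (median 1281.6). Obese pigs were split evenly by the lean median, with 6 of 12 above it. Mean levels were 1331.3 ± 444.8, 1150.2 ± 433.7 and 1275.7 ± 415.7 (SD, n = 12 each). The log2 difference was -0.10 ± 0.18 for obese against lean (SE, 95% interval -0.47 to 0.28, limma adjusted p = 0.861) and -0.26 ± 0.18 for intermediate against lean (95% interval -0.64 to 0.11, adjusted p = 0.572). Over the fits without 1 pig the obese against lean value ran from -0.17 to -0.01.

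PDE3B (ENSSSCG00000013388), the antilipolytic enzyme at the end of the cascade, ranged from 62.54 to 198.2 in lean pigs (median 134.5), from 77.27 to 249.0 in intermediate pigs (median 155.1) and from 107.7 to 210.4 in obese pigs (median 135.8). Obese pigs lacked the low values seen among the lean, while 10 of 12 intermediate pigs lay above the lean median. Mean levels were 134.1 ± 45.73, 154.7 ± 45.01 and 140.4 ± 31.13 (SD, n = 12 each). The log2 difference was 0.12 ± 0.16 for obese against lean (SE, 95% interval -0.22 to 0.45, limma adjusted p = 0.797) and 0.23 ± 0.16 for intermediate against lean (95% interval -0.11 to 0.56, adjusted p = 0.583). Over the fits without 1 pig the intermediate against lean value ran from 0.14 to 0.30. With the macrophage marker mean as a covariate it was 0.37 (unadjusted p = 0.0352, adjusted p = 0.515).

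**Figure D2:**
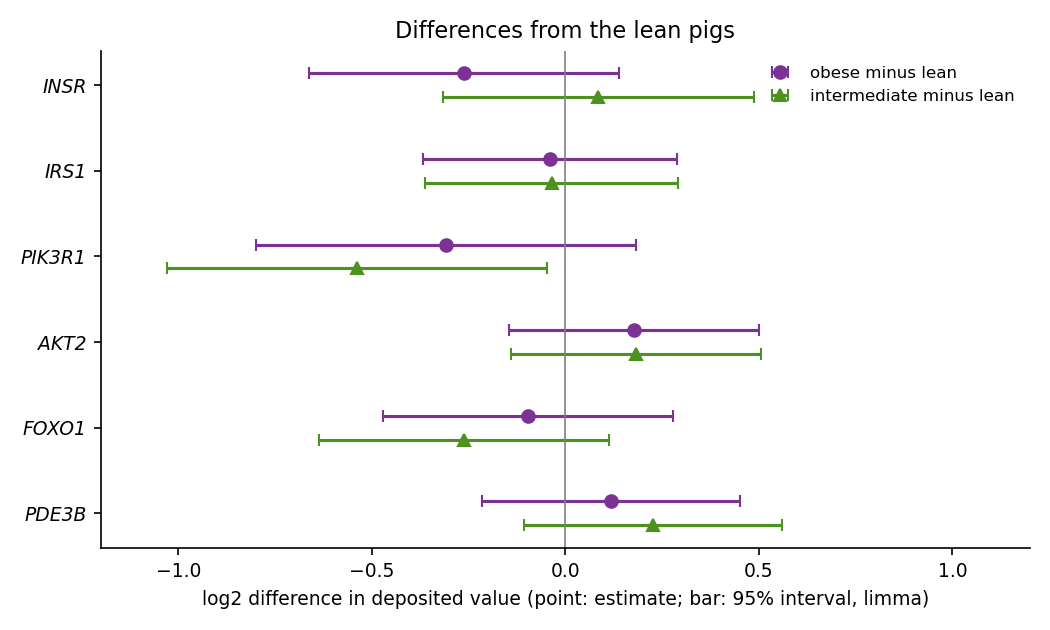
Log2 differences in the deposited value (horizontal axis) of obese (circles) and intermediate (triangles) pigs from lean pigs for the 6 genes, with 95% intervals from limma. Every interval holds 0 except that of PIK3R1 in intermediate pigs, which runs from -1.03 to -0.05 and is not corrected for the number of genes.

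Both pigs lowest in AKT2 were lean, a male (replicate 7, normalized count 4444.8) and a female (replicate 1, 4616.5). They were also the lowest pigs of all 36 in PDE3B, at 62.54 and 75.86, and in the mean of the scaled adipocyte markers, at -2.11 and -1.18 SD units. A fit without both was chosen after their values were seen. There the log2 difference of obese against lean was -0.02 for AKT2 and -0.04 for PDE3B. For intermediate against lean the values were -0.02 and 0.07. Leaving out the lowest lean values had to lower these differences. Over the fits without 1 pig the obese against lean values stayed above 0, at 0.07 to 0.23 for AKT2 and 0.03 to 0.17 for PDE3B. With the adipocyte marker mean as a covariate the obese against lean difference was 0.00 for AKT2 and -0.04 for PDE3B. With the macrophage marker mean it was 0.29 and 0.31 (limma adjusted p = 0.571 and 0.549). The part of adipocyte or macrophage content in these levels was not tested.

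Sex was labelled for each pig and was compared within the same fit. At the adjusted threshold 0 of 6 genes passed for males against females, beside 2.19% of all genes (0.955% higher and 1.23% lower in males), and only IRS1 reached an unadjusted p below 0.05, against 18.3% of all genes. The 268 genes behind the 2.19% became 147 to 546 without 1 pig (546 without lean replicate 1 and 147 without obese replicate 1), 14 with the adipocyte covariate and 524 with the macrophage covariate. IRS1 ranged from 133.1 to 317.7 in the 19 males (median 223.9) and from 101.9 to 311.1 in the 17 females (median 148.2). Ranges overlapped widely, yet 18 of 19 males were above the female median. Mean levels were 225.4 ± 46.76 in males and 169.7 ± 54.42 in females (SD, n = 19 and 17). The log2 difference of males against females was 0.43 ± 0.13 (SE, 95% interval 0.16 to 0.70, unadjusted p = 0.00251, limma adjusted p = 0.0728). This value lay at the threshold, as the adjusted p was 0.0496 after division by the whole size factor, 0.0133 without lean replicate 1 (a log2 difference of 0.51) and 0.0397 without lean replicate 5 (0.47). It stayed above 0.05 in the other 34 fits without 1 pig (up to 0.112), after subtraction of the median of each pig (0.0504) and with voom weights (0.0550). By group, males averaged 223.6 ± 58.87 against 180.1 ± 74.06 in lean (n = 7 and 5), 238.0 ± 45.03 against 158.5 ± 49.91 in intermediate (n = 6 and 6) and 214.9 ± 36.84 against 172.3 ± 48.29 in obese pigs (n = 6 and 6), so the male mean was the higher in each group. The sexes also differed in cell type markers, with 6 of 7 T or NK cell markers lower (median log2 difference -0.98), 5 of 6 adipocyte markers lower (median -0.35) and 5 of 6 fibroblast or progenitor markers higher (median 0.63) in males at an unadjusted p below 0.05. The part of T or NK cells and fibroblasts in the IRS1 difference was not tested. With the adipocyte marker mean as a covariate the log2 difference of IRS1 was 0.51 (unadjusted p = 0.00268, adjusted p = 0.282).

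The obese against lean difference was then compared between the sexes by an interaction term. None of the 6 genes passed (0 of 6, against 0.00816% of all genes, which is 1 gene and 0 to 33 without 1 pig, 33 without lean replicate 2 and 29 without obese replicate 8), and AKT2 alone had an unadjusted p below 0.05, against 12.9% of all genes. In females AKT2 was 8517.6 ± 2620.0 in lean (4616.5 to 11693.0, SD, n = 5), 12121.6 ± 2238.4 in intermediate (9609.6 to 15573.3, n = 6) and 13519.8 ± 1726.6 in obese pigs (10833.4 to 15071.7, n = 6). Only the highest lean female reached the range of the obese females. In males the order of the means was the opposite, with 10758.1 ± 3078.5 in lean (4444.8 to 13316.2, SD, n = 7), 9853.2 ± 1556.1 in intermediate (7996.1 to 11627.1, n = 6) and 8838.4 ± 2284.3 in obese pigs (6732.7 to 12522.4, n = 6). All obese males were inside the range of the lean males.

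Fitted alone, females gave a log2 difference in AKT2 of 0.66 for obese against lean (limma unadjusted p = 0.00332, adjusted p = 0.124) and males gave -0.22 (adjusted p = 0.694). The difference between the sexes, male minus female, was -0.89 ± 0.29 (SE, 95% interval -1.48 to -0.30, unadjusted p = 0.00445, adjusted p = 0.214). It kept its sign in each of the 36 fits without 1 pig (-1.07 to -0.70, adjusted p from 0.0971 to 0.432). The adipocyte marker mean went from 0.15 ± 0.84 in lean to 0.86 ± 0.60 in obese females, the direction of AKT2, and from -0.45 ± 0.77 in lean to -0.32 ± 0.29 in obese males, where AKT2 went the other way (SD units). For the interaction 0 of 6 adipocyte markers and 2 of 7 T or NK cell markers had an unadjusted p below 0.05, beside 12.9% of all genes. Both T or NK cell markers were lower (list median -1.24 against 0.09 over all genes). The part of T or NK cells in the AKT2 interaction was not tested. With the adipocyte marker mean as a covariate the AKT2 interaction was -0.64 (unadjusted p = 0.00541, adjusted p = 0.302), and without both pigs lowest in AKT2 it was -0.88 (adjusted p = 0.218). For INSR the interaction had the other sign, 0.63 ± 0.39 (SE, 95% interval -0.17 to 1.43, adjusted p = 0.493).

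**Figure D3:**
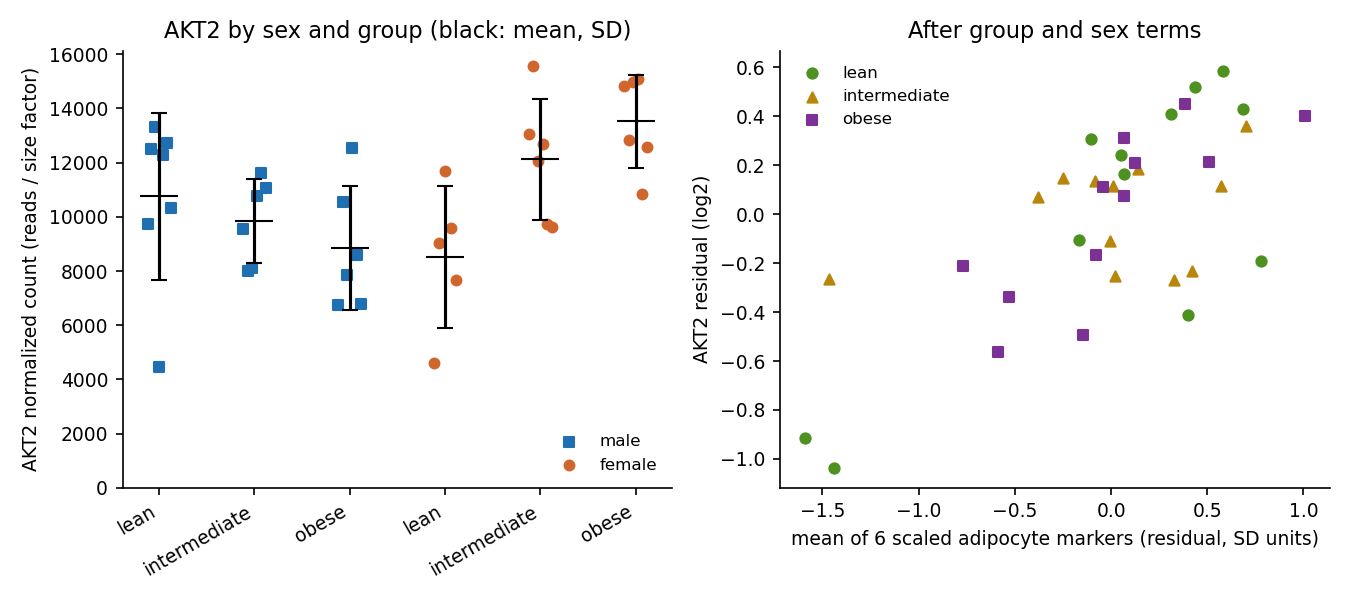
Left, AKT2 normalized counts (vertical axis, from 0) in each pig by sex and group, with mean and SD in black; means rise from 8517.6 to 13519.8 over the female groups and fall from 10758.1 to 8838.4 over the male groups, a difference that did not pass correction. Right, AKT2 (log2) against the mean of 6 scaled adipocyte markers (SD units), both as residuals after group and sex terms, in 36 pigs (r = 0.70); the 2 points at the lower left are the lean pigs lowest in AKT2.

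After additive group and sex terms, pigs differed more in these genes than in the median gene. A difference between groups that depends on sex stays in this spread. The residual SD on the log2 scale was 0.60 for PIK3R1, 0.50 for INSR, 0.47 for FOXO1, 0.41 for PDE3B, 0.41 for IRS1 and 0.40 for AKT2, compared with a median of 0.33 over all genes. Poisson sampling of the reads would give 27.8% of this variance for PIK3R1, 12.3% for INSR, 9.28% for PDE3B and 6.97% for IRS1, and 0.828% or less for FOXO1 and AKT2. For FOXO1, 87.6% of the 500 genes nearest in level had a lower SD, and for the other 5 genes this share was between 63.0% and 73.2%.

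How the genes varied together was examined over the 36 pigs on residuals after group and sex terms, for 15 pairs with two-sided permutation tests. Of these, 3 pairs were correlated after BH correction over the 15. AKT2 and PDE3B had a Pearson's r of 0.64 (p = 2e-05, adjusted p = 0.0003, permutation) and a Spearman's rho of 0.55 (p = 0.00064, adjusted p = 0.0096). Over all pairs of genes in the table the median absolute r was 0.17, and 0.555% of pairs had a higher value than AKT2 and PDE3B. With the 2 most distant pigs in AKT2 left out, the r was 0.50 (permutation p = 0.00274), and within the lean, intermediate and obese groups it was 0.74, 0.49 and 0.68.

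PIK3R1 rose with FOXO1 (r = 0.50, p = 0.00189, adjusted p = 0.0142; rho = 0.48, p = 0.00348, adjusted p = 0.0261, permutation), and 3.62% of all gene pairs had a higher absolute r. The relation held when the 2 most distant pigs in PIK3R1 were left out (r = 0.51, permutation p = 0.00223). Within the lean, intermediate and obese groups r was 0.45, 0.40 and 0.69. INSR and PIK3R1 went in opposite directions (r = -0.48, p = 0.00286, adjusted p = 0.0143; rho = -0.43, p = 0.00914, adjusted p = 0.0457, permutation). Of all gene pairs 4.56% had a higher absolute r. This pair was less firm, with r = -0.38 (permutation p = 0.0253) when the 2 most distant pigs in INSR were left out, and r = -0.66, 0.11 and -0.52 in the lean, intermediate and obese groups. It also missed the threshold when the median of each pig was subtracted (r = -0.40, permutation adjusted p = 0.0769) or when reads were divided by the whole size factor (r = -0.41, permutation adjusted p = 0.0598). None of the 3 pairs passed within the 12 pigs of any group alone.

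**Figure D4:**
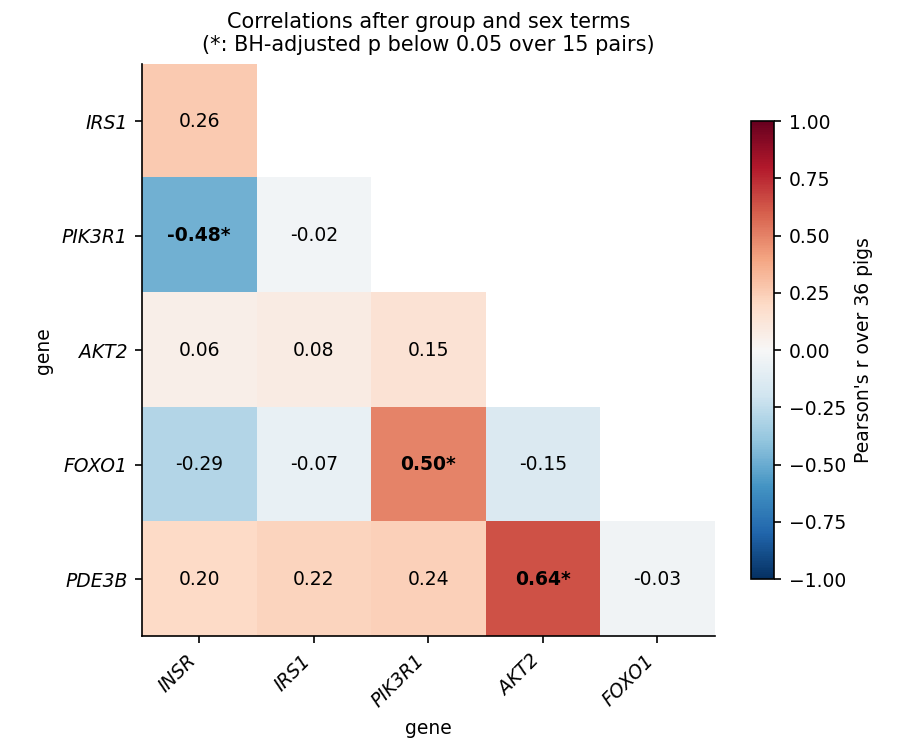
Pearson's r over 36 pigs for the 15 pairs of genes, on residuals after group and sex terms, as colour and number; stars mark an adjusted permutation p below 0.05. AKT2 with PDE3B (0.64) and PIK3R1 with FOXO1 (0.50) were positive, and INSR with PIK3R1 (-0.48) was negative.

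The same residuals were set against the means of the scaled adipocyte and macrophage markers, in 12 tests. AKT2 rose with the adipocyte mean (r = 0.70, p = 2e-05, adjusted p = 0.00024; rho = 0.60, p = 0.00015, adjusted p = 0.0018, permutation) and kept r = 0.64 (permutation p = 9e-05) without the 2 most distant pigs. A higher absolute r with this mean was found in 0.212% of all genes that are not markers of the list, and in 0.939% for PDE3B. For PDE3B the Pearson correlation passed (r = 0.61, p = 0.00015, adjusted p = 0.0009, permutation), but Spearman's did not (rho = 0.41, p = 0.013, adjusted p = 0.0518, permutation), and r was 0.38 (permutation p = 0.0255) without the 2 most distant pigs, so the strength of the relation rested in part on them. INSR, IRS1, PIK3R1 and FOXO1 had r between -0.05 and 0.18 with the adipocyte mean, and 0 of 4 passed. With the macrophage mean 0 of 6 genes passed, and PDE3B came nearest (r = -0.37, p = 0.0255, adjusted p = 0.102, permutation), with a higher absolute r in 22.7% of genes.

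As a description, the 2 genes with the highest r to each of the 6 over the same residuals were listed. AKT2 was most like TRARG1 (r = 0.82), which regulates GLUT4 trafficking, and PLIN1 (0.78), the perilipin that coats the lipid droplet of adipocytes. FOXO1 was closest to CCDC68 (0.85) and to the circadian clock gene PER1 (0.82). INSR was nearest to the histone demethylase KDM3B (0.77) and the splicing factor MBNL2 (0.74), and PDE3B to MDFIC (0.77) and AHCYL2 (0.75). PIK3R1 was most like SC5D (0.67), an enzyme of cholesterol synthesis, and ACLY (0.65), which supplies acetyl-CoA for fatty acid synthesis, whereas IRS1 was closest to ARMC5 (0.71) and the guidance cue NTN1 (0.67). These correlations share libraries and depth, and genes with an absolute r above 0.6 numbered from 16 for IRS1 to 237 for PDE3B.

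FOXO1 was also set against the measured genes of a list of FOXO factors and their target genes (10 of 18), a test added after the data had been seen. It rose with FOXO3, its paralog (r = 0.63, p = 7e-05, adjusted p = 0.0007; rho = 0.69, p = 1e-05, adjusted p = 0.0001, permutation), of which 1e-05 is the smallest p the permutations can give. FBXO32, a ubiquitin ligase induced by FOXO factors in muscle, followed (r = 0.57, p = 0.0002, adjusted p = 0.001; rho = 0.51, p = 0.00181, adjusted p = 0.00905, permutation). PDK4, a kinase that shuts off pyruvate dehydrogenase, had r = 0.41 (p = 0.0139, adjusted p = 0.0464, rho = 0.44, p = 0.00746, adjusted p = 0.0249, permutation). With the 2 most distant pigs in FOXO1 left out, r was 0.54 for FOXO3 (permutation p = 0.00068), 0.44 for FBXO32 (p = 0.0101) and 0.40 for PDK4 (p = 0.0174). Over all gene pairs, 0.597% had a higher absolute r than FOXO1 with FOXO3, 1.43% than with FBXO32 and 9.40% than with PDK4. The other 7 genes had r between -0.30 and 0.28 and did not pass.

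Beyond the core genes, 92 of 131 listed genes of the insulin pathway were measured, in 8 lists ordered by step. In obese against lean pigs 0 of the 92 passed correction, with 6 higher and 4 lower at an unadjusted p below 0.05 (14.7% of all genes had such a p, so the listed genes did not exceed the background), and their median log2 difference was 0.03 against -0.01 over all genes. Between intermediate and lean pigs 0 passed, with 10 higher and 3 lower unadjusted, beside 12.5% of all genes.

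The 2 genes with the smallest p for obese against lean in each list were named. Among the adaptors and inhibitors of the receptor, ENPP1, a membrane pyrophosphatase that can inhibit the receptor, had 827.2 ± 485.8 normalized counts in the lean group (258.6 to 1904.3) and 1417.7 ± 408.7 in the obese group (753.5 to 2067.7; SD, n = 12 each). Its groups overlapped, and the log2 difference was 0.93 ± 0.25 (SE, limma adjusted p = 0.0771). GRB2, the adaptor to the RAS arm, differed by 0.18 ± 0.09 (adjusted p = 0.353). For PI3-kinase and the phosphoinositide phosphatases the nearest were PIK3CD, the catalytic subunit typical of leukocytes (0.61 ± 0.20, adjusted p = 0.134), and INPP5D, the SHIP1 phosphatase of blood cells (0.54 ± 0.20, adjusted p = 0.186). Macrophage markers had a median difference of 0.80 in the same contrast, and their part in these values was not tested.

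Among FOXO factors and targets, PDK4 averaged 14649.2 ± 7900.0 normalized counts in the lean group and 7026.3 ± 3164.9 in the obese group (SD, n = 12 each), a log2 difference of -1.14 ± 0.44 (SE, limma adjusted p = 0.201), and SESN1 differed by 0.26 ± 0.13 (adjusted p = 0.356). In the antilipolytic arm, the beta-1 adrenergic receptor ADRB1 differed by -0.81 ± 0.39 (adjusted p = 0.317) and the phosphodiesterase PDE4D by -0.29 ± 0.16 (adjusted p = 0.414). Of the output genes, glycogen synthase GYS1 had a log2 difference of 0.20 ± 0.10 and the syntaxin STX4 of -0.15 ± 0.07 (adjusted p = 0.317 and 0.325). The remaining named genes, GSK3B and TBC1D1 of the AKT substrates, EIF4E and RPS6KB2 of the mTOR branch and MAP2K2 of the RAS arm, had differences between -0.14 and 0.16.

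Between the sexes 4 of the 92 listed genes passed, each lower in males, beside 2.19% of all genes in either direction and 1.23% lower in males. They were FOXO4, a FOXO paralog (log2 difference -0.51, adjusted p = 0.00184), LIPE (-0.55, adjusted p = 0.00534) and PNPLA2 (-0.37, adjusted p = 0.0483), the hormone-sensitive and adipose triglyceride lipases, and PIK3CD (-0.61, adjusted p = 0.0446), all by limma. LIPE and PNPLA2 are also on the adipocyte list, of which 5 of 6 were lower in males at an unadjusted p below 0.05. PIK3CD is typical of leukocytes, and 6 of 7 T or NK cell markers and 3 of 10 macrophage markers were lower in males at that threshold. Of all genes 18.3% met it in either direction. The part of these cells in the differences was not tested.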

How the data were processed

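The deposited table holds log2 values for 1 column per pig. The authors cleaned the reads with FastQC, aligned them to Sscrofa10.2 with STAR and obtained gene counts with HTSeq. The authors then dropped genes with low counts, took size factors from DESeq and used voom from limma. From the steps between low values, a deposited value is the log2 of the reads plus 0.5, divided by the size factor plus 1 and multiplied by a constant. It is therefore only partly scaled for depth. At least 99.85% of the values of each pig were within 0.1 of whole reads, and dividing these reads by the size factor gave the normalized counts. The correction for sex described by the study is not in the values. The lowest counts per pig were 6 or 7 reads.

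Tests used limma 3.58.1 in R 4.3.3 on the deposited log2 values of all 36 pigs, with empirical Bayes moderation, an intensity trend, group and sex terms and BH correction over 12253 genes at 0.05. Intervals are at 95% and not corrected for the number of genes. The trend coded the groups as -1, 0 and 1. Correlations used 100000 permutations of residuals in Python 3.11.15 with numpy 2.4.6 and pandas 2.3.3. The most distant pigs left out of a correlation are the 2 with the largest distance to the median of the gene or mean named. A marker mean averages the scaled log2 values of the markers measured. Each pig is a separate animal; lanes and sib groups were not used here. For obese against lean pigs the median SE of the log2 difference was 0.1747 for the 6 genes and 0.1334 over all genes. The smallest difference that could be detected in the 6 genes was not tested.

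The members and lists were chosen with earlier results of these data known. All members were named, and of the pathway lists every gene past the threshold and the 2 with the smallest unadjusted p in each, of which 1 gene is not reported here. Each of the marker lists, which also covered B cells, fibroblasts or progenitors, skeletal muscle, red cells and skin, gave 0 genes past correction in obese against lean pigs, with 0 of 6 B cell markers measured. Protein, promoter and transcript sequences, coordinates and lengths were not used here. Alternatives were a fit without sex, the compared groups alone, no intensity trend, no genes of the lowest 25%, subtraction of medians, voom weights on recovered reads, marker means as covariates, each sex alone and each pig left out. Division by the whole size factor, both pigs lowest in AKT2 left out, the marker covariates and left-out pigs in the sex and interaction tests, and the FOXO1 list were added once the data were known.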

Additional observations from a re-analysis of the deposited data

How the results depend on the processing

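In the tests between groups of pigs, 0 of the 6 genes were called under each alternative that could be fitted, including each of the 36 fits without 1 pig. Over all genes, the 5 called for obese against lean became 0 to 29 under the other alternatives and 1 to 292 without 1 pig. Removing the lowest 25% of genes left INSR and PIK3R1 untested. Between the sexes the number called was 1 (IRS1) after division by the whole size factor and 0 to 1 over the fits without 1 pig. Directions of obese against lean reversed in males alone for INSR (0.0266), AKT2 (-0.224) and FOXO1 (0.0584), with the adipocyte covariate for PDE3B (-0.0424), and without both pigs lowest in AKT2 for IRS1 (0.0417), AKT2 (-0.0205) and PDE3B (-0.0381). Over the fits without 1 pig, IRS1 ranged from -0.106 to 0.0635. For intermediate against lean, reversals were IRS1 (0.115) and AKT2 (-0.0668) in males alone, INSR (-0.103) in females alone, and IRS1 (0.0449) and AKT2 (-0.0152) without both pigs. Without 1 pig, INSR ranged from -0.0163 to 0.181 and IRS1 from -0.103 to 0.0668. The difference of males against females in AKT2 was -0.22, and 0.13 with the adipocyte covariate. The causes were not tested.

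Of the 15 pairs, 0 passed in lean pigs alone and 0 in obese pigs alone, and in intermediate pigs 3 other pairs passed but none of the 3 called over all pigs. Other signs reversed for IRS1 with AKT2 (r = 0.08, but -0.0818 in the values as deposited and -0.35 in lean pigs), INSR with IRS1 (-0.17 in lean pigs), INSR with AKT2 (-0.0235 in lean and -0.0721 in obese pigs), INSR with PDE3B (-0.16 in obese pigs) and INSR with PIK3R1 (0.11 in intermediate pigs). The correlation of PDE3B with the adipocyte mean was 0.40 (permutation adjusted p = 0.0956) in the values as deposited. No paired analysis was possible because the labels number the pigs without pairing them across groups. PIK3R1 at 8 to 47 reads per pig is the value most limited by depth.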

Other observations

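The spread of INSR between pigs differed between the sexes, which was noticed in the values and is given as a description with no test. Male normalized counts lay between 55.43 and 92.52 (19 pigs), while female counts lay between 31.85 and 152.8 (17 pigs). The SD within groups on the log2 scale was 0.21 in males and 0.69 in females, a ratio of 3.32. A ratio at least as high was found in 0.0408% of the 12253 genes, whose median ratio was 0.99. Poisson counting alone would give INSR an SD of about 0.17, so the male value is not far above counting error. The ratio was 1.61 for PIK3R1, 1.58 for IRS1, 1.35 for FOXO1, 0.97 for PDE3B and 0.87 for AKT2. The wide female values were present in each group, with within-group SDs on the log2 scale of 0.81 in 5 lean, 0.47 in 6 intermediate and 0.76 in 6 obese females, compared with 0.19, 0.17 and 0.26 in the males.

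In the 12 intermediate pigs alone, INSR rose with IRS1 (r = 0.72), AKT2 (0.74) and PDE3B (0.78), each with a permutation adjusted p of 0.0418 over 15 pairs. The same 15 pairs were also tested in the lean and in the obese pigs, where 0 passed. This group was picked because pairs passed in it, and the adjusted p does not correct for testing each group. In these 12 pigs the median absolute r over all gene pairs was 0.24, and 1.88%, 1.44% and 0.803% of all pairs had a higher absolute r, respectively. Over all 36 pigs the same pairs had r = 0.26, 0.06 and 0.20, and whether the groups differ in these correlations was not tested. IRS1 and AKT2 had r = 0.08 over 36 pigs and 0.53 (permutation p = 0.00143) when the 2 most distant pigs in IRS1 were left out. This p is not corrected, and the pair was picked from the 15 after the values were seen. The pigs left out, lean replicates 1 and 5, had residuals of opposite sign in IRS1 (1.01 and -0.76) and AKT2 (-1.04 and 0.59). Leaving them out therefore had to raise r.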
